A study of Homo sapiens with 9 samples.

Results

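The genes described here were measured in total RNA of IMR90 ER:RAS cells with Affymetrix arrays. They are the Wnt ligands, their frizzled, LRP and ROR receptors, the R-spondins, the secreted Wnt antagonists, AXIN2 and LEF1. IMR90 is a human lung fibroblast line (spelled IRM90 in the labels), and ER:RAS is an oncogenic RAS protein that 4-hydroxytamoxifen (4OHT) switches on. All 9 samples carry ER:RAS and a vector. Cells labelled shARID1B+4OHT carried a hairpin against ARID1B, which belongs to the SWI/SNF chromatin remodellers, and were treated with 100 nM 4OHT (knockdown cells, n = 3). Cells labelled vector+4OHT had the empty vector and the same dose (senescent cells, n = 3), and cells labelled vector-4OHT had the empty vector and no 4OHT (non-senescent cells, n = 3). The labels give day 6 after 4OHT for every sample, the untreated ones included, and 7 days of growth. No labelled group received 4OHT without ER:RAS, so the drug and RAS cannot be told apart. None had a control hairpin, so any hairpin and the loss of ARID1B cannot be told apart. No group carried the ARID1B hairpin without 4OHT, so hairpin effects that need 4OHT and those that do not cannot be told apart. Replicates are not said to be separate cultures in the labels, while the paper that reported these data calls them biological replicates. Had they not been separate cultures, p-values would measure technical spread alone.

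Members were chosen by gene symbol. Of 19460 probe sets with exactly 1 symbol, 50 carried a symbol of these families, and they stood for 49 of 18417 genes: 19 WNT ligands, 10 frizzled receptors, 2 LRP co-receptors, 2 ROR receptors, 4 R-spondins, 10 secreted antagonists, AXIN2 and LEF1. DKK3 had 2 probe sets, of which the brighter was used. TCF7, another symbol of the rule, was not analysed here. Values are log2 expression as deposited, and no gene was left out for a low value. Of the 49 members, 15 had a mean over the 9 arrays under 6.75 (the median of the whole table), a level at which signal over background was not shown. Probe sets of different genes bind with different strength, so levels are compared between groups and not between genes. The brightest probe sets, by their mean over the 9 arrays, belonged to DKK3 (12.42), SFRP1 (12.33), WNT5A (10.96), WNT16 (10.76) and FZD6 (10.70).

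Wnt ligands are secreted lipid-modified proteins that bind frizzled receptors. With LRP5 or LRP6 as co-receptor they stabilise beta-catenin, which then acts with DNA-binding factors such as LEF1. Other ligands, WNT5A foremost, signal without beta-catenin through frizzled and the receptors ROR1 and ROR2. Secreted antagonists act outside the cell, the SFRP proteins and FRZB by binding Wnt ligands and DKK1 by blocking LRP5 and LRP6, while R-spondins amplify the signal. In lung, Wnt signals between fibroblasts and epithelium take part in development and repair, and WNT16 is known as a factor that fibroblasts secrete after DNA damage.

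All 11 fibroblast markers had group means above 6.75 in each group, with list means per array of 10.91 to 10.96 in knockdown, 10.83 to 10.91 in senescent and 11.19 to 11.29 in non-senescent cells. In senescence 9 of the 11 were called lower and 0 higher, where 17.6% of all genes were lower. That is 81.8% called, against 45.1% of all genes with a mean of 6.75 or more. The proteoglycan DCN fell most, by 1.60 (adjusted p = 2.24e-08). With the hairpin 2 were higher and 2 lower, where 9.63% and 6.09% of all genes were. Between knockdown and non-senescent cells 0 were higher and 7 lower, where 15.6% and 15.9% of all genes were. Of 9 epithelial markers, 4 had a group mean above 6.75 in knockdown cells and 3 in each of the other groups, with list means per array of 6.65 to 6.75, 6.53 to 6.66 and 6.75 to 6.79 in knockdown, senescent and non-senescent cells. Of 9 leukocyte and 10 endothelial markers, 2 each were above 6.75 in every group, with list means of 6.18 to 6.30 and 5.76 to 5.88. KRT19, a keratin, fell by 1.10 in senescence (adjusted p = 1.22e-05) and rose by 0.86 with the hairpin (adjusted p = 0.000321). Of the other epithelial markers, the mucin MUC1 fell by 0.62 in senescence (adjusted p = 0.000212) and the claudin CLDN4 rose by 0.38 with the hairpin (adjusted p = 0.00128). CD68, a lysosomal protein abundant in macrophages, averaged 11.49 in knockdown, 11.14 in senescent and 10.85 in non-senescent cells and was called higher in both comparisons (log2 changes 0.29 in senescence and 0.34 with the hairpin, adjusted p = 0.00558 and 0.00511). The endothelial receptor TEK changed by -0.30 in senescence and 0.45 with the hairpin (adjusted p = 0.002 and 0.000526), and PECAM1, with group means of 6.28 or less, by 0.58 and -0.28 (adjusted p = 0.000254 and 0.0468). No other marker of these 3 lists was called in either comparison. EPCAM, PTPRC and CDH5, which define epithelium, leukocytes and endothelium, had group means of 5.93 or less and were among those not called. In bulk RNA, fewer cells of a type and less RNA per cell cannot be told apart. The part of these markers in the Wnt results was not tested. ARID1B itself stood at 8.07, 7.96 and 8.13 on the knockdown arrays and 8.63, 8.96 and 8.77 on the senescent arrays, 39.9% lower with the hairpin (adjusted p = 0.000179).

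In senescence, a comparison of senescent with non-senescent cells that asks what differed once RAS had been switched on, the ligand WNT5A and the receptors FZD8 and FZD1 rose. The antagonists FRZB, DKK1 and SFRP1 and the receptors ROR1, ROR2, FZD2 and FZD7 fell. With the ARID1B hairpin, WNT16 rose 2-fold over senescent cells, and DKK2 and WNT7B, both raised in senescence, fell. A member was called at an adjusted p under 0.05 (limma, Benjamini-Hochberg over all 18417 genes). In senescence 19 of 49 members were called (38.8%), against 32.6% of all genes. Of these 7 were higher and 12 lower, where 14.9% of all genes were higher and 17.6% lower. With each array's median subtracted, 7 members were higher and 10 lower, and 53.2% of all called genes were higher, against 45.8% without it. In knockdown against senescent cells 9 members were called (18.4%), against 15.7% of all genes, 3 of them higher and 6 lower, beside 9.63% and 6.09% of all genes. In knockdown against non-senescent cells 22 were called (44.9%), against 31.5% of all genes, 7 higher and 15 lower, beside 15.6% and 15.9% of all genes. After the same subtraction that last split was 9 higher and 10 lower, and over all genes the higher share of the calls was 62.3%, against 49.4% without it. The shares in senescence and with the hairpin lay near those of all genes, and bright genes were called more often. Among the 34 members with a mean of 6.75 or more, 50% were called in senescence, against 45.1% of all genes as bright. With the hairpin it was 26.5% against 22.5%, and for knockdown against non-senescent cells 52.9% against 42.4%. The median member changed by -0.004 in senescence, -0.072 with the hairpin and -0.068 between knockdown and non-senescent cells, on the log2 scale, where the median of all genes was -0.012, -0.017 and -0.034.

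**Figure D1:**
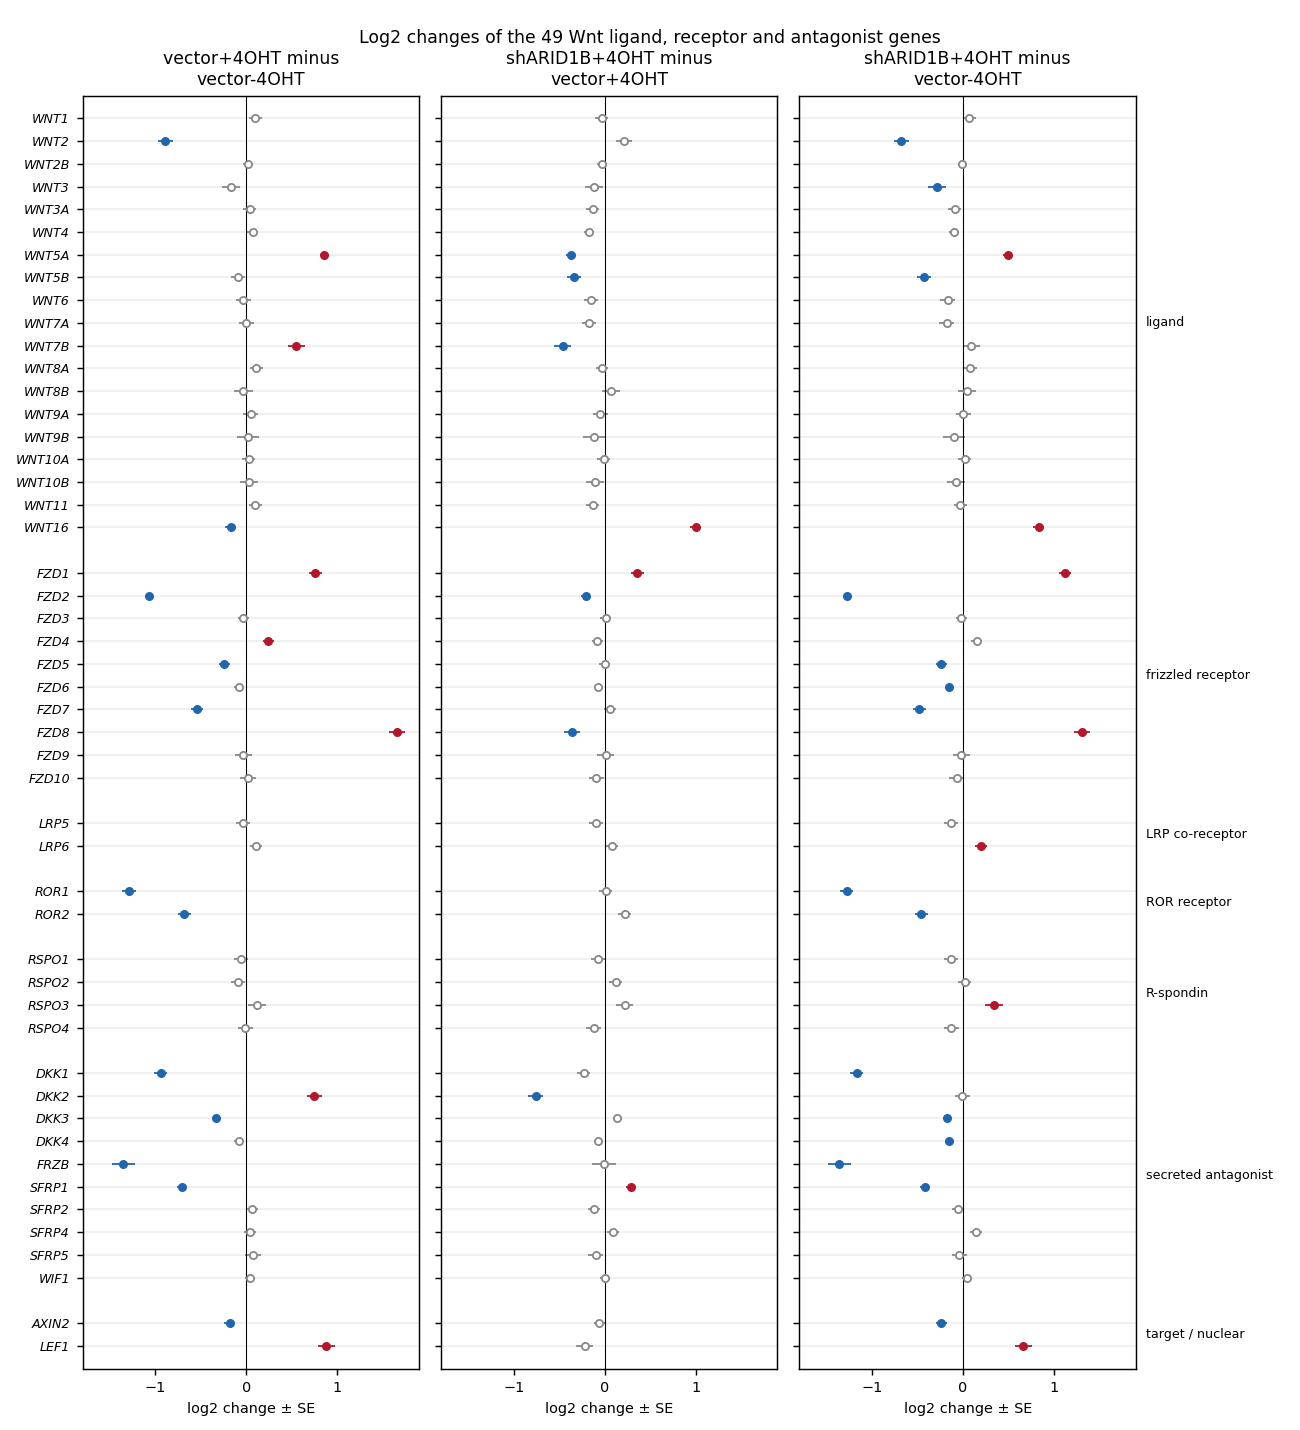
Log2 change ± SE (horizontal axis) of each of the 49 members (rows, by role) in senescence (left), with the ARID1B hairpin (middle) and between knockdown and non-senescent cells (right). Red points were called higher, blue points lower and open points were not called. FZD8 lies farthest right in senescence at 1.66 and FRZB farthest left at -1.35, and WNT16 stands out in the middle panel at 1.0.

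The upstream sequences of a few members are shown, 3 for the size of their change and 1 for a motif. They are the 250 bases before the transcription start in RefSeq (GRCh38.p14), written 5′ to 3′ on the strand of the gene. FZD8 had the largest rise and FRZB the largest fall in senescence, and WNT16 had the largest change with the hairpin. DKK1 was the member whose window held a TCF/LEF motif of the forms searched. FZD8 lies on the minus strand at chr10:35642297-35642546, FRZB on the minus strand at chr2:182866638-182866887, WNT16 on the plus strand at chr7:121328750-121328999 and DKK1 on the plus strand at chr10:52314031-52314280. Capitals mark the motifs searched on both strands, which were CTTTGTT or CTTTGAT for TCF/LEF factors, TGACTCA for AP-1 and TATAAA for the TATA box. Other forms of the TCF/LEF motif were not searched and are not marked.
FZD8: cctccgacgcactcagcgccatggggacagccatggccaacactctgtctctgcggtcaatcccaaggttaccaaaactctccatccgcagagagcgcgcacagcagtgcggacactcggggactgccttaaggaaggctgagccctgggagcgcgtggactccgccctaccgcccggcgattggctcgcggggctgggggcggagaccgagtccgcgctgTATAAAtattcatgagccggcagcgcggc
FRZB: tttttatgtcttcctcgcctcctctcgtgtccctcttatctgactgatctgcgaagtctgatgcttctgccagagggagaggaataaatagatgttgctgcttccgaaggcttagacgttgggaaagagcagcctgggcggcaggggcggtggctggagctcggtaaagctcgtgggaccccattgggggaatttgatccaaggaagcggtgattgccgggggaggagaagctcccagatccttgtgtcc
WNT16: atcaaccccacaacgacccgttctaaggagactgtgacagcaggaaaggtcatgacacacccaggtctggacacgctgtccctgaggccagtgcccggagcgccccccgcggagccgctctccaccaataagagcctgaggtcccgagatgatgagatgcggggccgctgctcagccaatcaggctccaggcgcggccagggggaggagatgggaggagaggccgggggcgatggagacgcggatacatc
DKK1: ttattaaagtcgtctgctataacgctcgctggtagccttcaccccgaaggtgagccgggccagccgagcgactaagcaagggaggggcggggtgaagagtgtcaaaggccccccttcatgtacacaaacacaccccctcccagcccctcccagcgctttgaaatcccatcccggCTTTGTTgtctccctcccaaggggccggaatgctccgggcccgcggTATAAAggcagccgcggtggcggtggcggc
The TATA letters began 30 bases before the start in DKK1 and 29 bases before it in FZD8, genes that moved in opposite directions in senescence. The TCF/LEF letters began 76 bases before the start of DKK1. The RefSeq table held 37 windows of 34 members. Of the 37 windows, 3 held the TATA letters, 1 the TCF/LEF letters and 0 the AP-1 letters. Over all 35116 windows the shares were 10.7%, 6.6% and 4.2%. Besides DKK1 and FZD8, the TATA letters were in WNT5B, on the opposite strand, 78 to 73 bases before the start. The TCF/LEF and TATA letters in DKK1 do not overlap each other. Median GC content was 70.8% in the members' windows and 58.0% in all windows. A match of letters does not show that a factor binds there.

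Among the ligands, 4 of 19 were called in senescence (21.1%, against 32.6% of all genes) and 4 with the hairpin (21.1%, against 15.7% of all genes). WNT5A, the main ligand of beta-catenin-independent signalling, stood at 10.95, 11.02 and 11.02 in knockdown cells, 11.39, 11.31 and 11.40 in senescent cells and 10.53, 10.43 and 10.56 in non-senescent cells. The 3 groups did not overlap, with senescent cells highest and knockdown cells between the other two. It rose 1.82-fold in senescence (log2 change 0.86, SE 0.054, adjusted p = 5.2e-07), and with the hairpin it fell by 0.37 (SE 0.054, adjusted p = 0.00101). In knockdown cells it was still 1.4-fold above non-senescent cells (adjusted p = 3.84e-05).

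WNT16, which fibroblasts are known to secrete after DNA damage, had another pattern. Its values were 11.38, 11.40 and 11.33 in knockdown cells, 10.30, 10.49 and 10.31 in senescent cells and 10.53, 10.55 and 10.54 in non-senescent cells. The knockdown arrays were the highest by a wide margin, and the senescent arrays lay just below the non-senescent ones. The rise with the hairpin was 2-fold (log2 change 1.0, SE 0.058, adjusted p = 3.44e-06), and knockdown cells were 1.77-fold above non-senescent cells (adjusted p = 1.17e-06). The senescence change of -0.17 was called at an adjusted p of 0.0436, a call that 12 of 18 alternatives did not keep (adjusted p of up to 0.165).

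WNT7B, a ligand known from lung epithelium in mouse development, had values of 6.88, 6.76 and 6.89 in knockdown cells, 7.09, 7.48 and 7.35 in senescent cells and 6.86, 6.72 and 6.68 in non-senescent cells. The senescent arrays were above all others, and the other groups overlapped. The rise in senescence was 1.47-fold (adjusted p = 0.000822). The hairpin comparison gave a change of -0.46 (adjusted p = 0.00722), to a level that differed from non-senescent cells by 0.09 (SE 0.093, adjusted p = 0.503). Its levels lay near 6.75, and the methods' t-test, after adjustment, did not call it in either comparison.

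WNT2, a ligand of the lung mesenchyme in mouse, stood at 6.43, 6.38 and 6.43 in knockdown cells, 6.42, 6.08 and 6.10 in senescent cells and 7.06, 7.06 and 7.17 in non-senescent cells. All 6 arrays of 4OHT-treated cells were below the non-senescent arrays. It fell by 0.89 in senescence (SE 0.085, adjusted p = 1.24e-05), and the treated means lay below 6.75, so the size of the fall is uncertain. With the hairpin its change was 0.21 (adjusted p = 0.132).

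WNT5B, the close relative of WNT5A, did not follow it. Its change in senescence was -0.09 (adjusted p = 0.47), and with the hairpin it fell by 0.34 (adjusted p = 0.0132), to 7.73 ± 0.14 in knockdown cells, against 8.07 ± 0.033 in senescent cells (SD, n = 3 each). That call was lost without shARID1B+4OHT replicate 3 (adjusted p = 0.055) and under the methods' t-test after adjustment. WNT3 was called only between knockdown and non-senescent cells (log2 change -0.29, adjusted p = 0.0476), which 10 of 18 alternatives did not keep. The other 13 ligands were called in no comparison. Among them were WNT1 and WNT3A, which act through beta-catenin, with changes of 0.10 and 0.04 in senescence. All group means of WNT3A lay below 6.75, where signal over background was not shown.

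**Figure D2:**
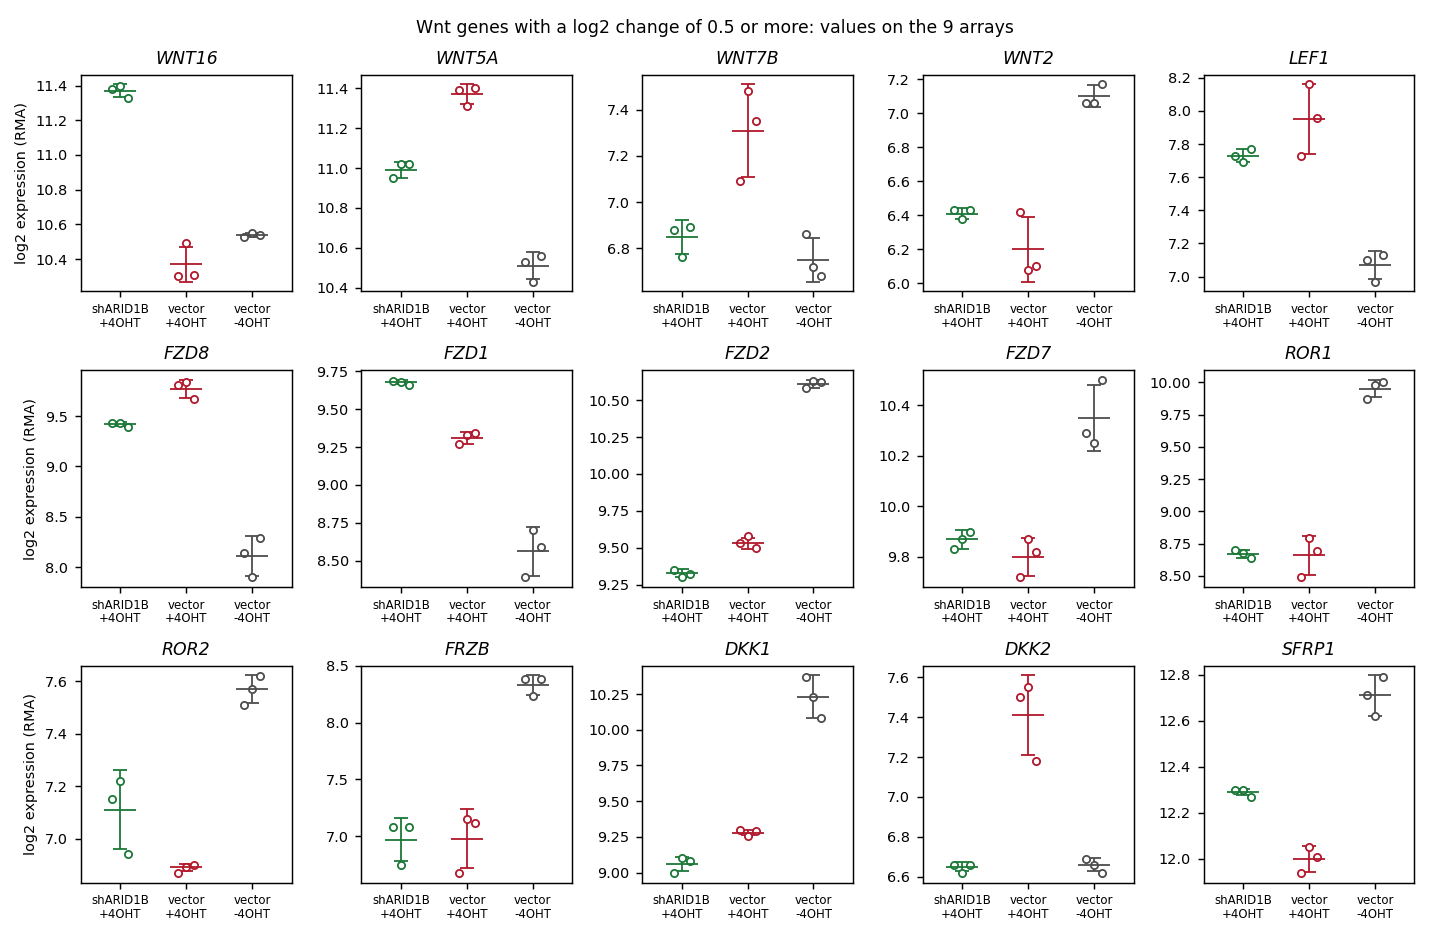
Log2 expression (RMA, vertical axes, each panel on its own scale) of the 15 members with a called log2 change of 0.5 or more, on the 3 arrays of each group (open points) with mean and SD (lines). In the WNT16 panel the knockdown arrays lie between 11.33 and 11.40 and all others at 10.55 or below, and in the ROR1 panel the non-senescent arrays lie at 9.87 or above and all treated arrays at 8.79 or below.

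The frizzled receptors, the membrane proteins to which Wnt ligands bind, moved in both directions. FZD8 had the largest rise of all members. It stood at 9.43, 9.43 and 9.39 in knockdown cells, 9.81, 9.84 and 9.67 in senescent cells and 8.14, 7.90 and 8.29 in non-senescent cells. The groups did not overlap, and the treated groups were close together far above the untreated one. The rise in senescence was 3.17-fold (log2 change 1.66, SE 0.089, adjusted p = 1.7e-07). With the hairpin it fell by 0.36 (SE 0.089, adjusted p = 0.0212). That call was lost without any 1 of 5 arrays (vector+4OHT replicate 1 or 2, or any shARID1B+4OHT replicate), with adjusted p of up to 0.0788 and changes from -0.41 to -0.32 over the alternatives.

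FZD1 rose in senescence and again with the hairpin, 2 comparisons that share the vector+4OHT arrays. Its values were 9.69, 9.68 and 9.66 in knockdown cells, 9.27, 9.33 and 9.34 in senescent cells and 8.39, 8.70 and 8.59 in non-senescent cells, with no overlap between groups. It rose 1.69-fold in senescence (adjusted p = 1.22e-05) and a further 1.29-fold with the hairpin (adjusted p = 0.00603), to 2.18-fold over non-senescent cells (adjusted p = 5.73e-07). FZD2, a close relative, was lower in both. It stood at 9.35, 9.30 and 9.32 in knockdown cells, 9.53, 9.58 and 9.50 in senescent cells and 10.58, 10.63 and 10.62 in non-senescent cells. It fell by 1.07 in senescence (SE 0.046, adjusted p = 3.09e-08) and by 0.21 with the hairpin (adjusted p = 0.0111, and 0.0524 without shARID1B+4OHT replicate 2). Knockdown cells had 0.411 times the level of non-senescent cells (adjusted p = 7e-09).

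FZD7, which is close to FZD1 and FZD2 in sequence, had values of 9.83, 9.87 and 9.90 in knockdown cells, 9.72, 9.87 and 9.82 in senescent cells and 10.29, 10.25 and 10.50 in non-senescent cells. It fell by 0.54 in senescence (adjusted p = 0.000124), and its change with the hairpin was 0.06 (SE 0.070, adjusted p = 0.617), the treated groups overlapping. FZD4, which also binds the ligand Norrin, rose by 0.24 in senescence (adjusted p = 0.0108). FZD5 fell by 0.24 (adjusted p = 0.012) with all group means below 6.75. FZD6 differed between knockdown and non-senescent cells by -0.15 (adjusted p = 0.0437), which 8 of 18 alternatives did not keep. FZD3, FZD9 and FZD10 were called in no comparison.

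Of the co-receptors, LRP5 was called in no comparison. LRP6 was called between knockdown and non-senescent cells, at 0.20 (adjusted p = 0.0479), a call that 8 of 18 alternatives did not keep. The ROR receptors, which bind WNT5A, both fell in senescence. ROR1 stood at 8.70, 8.68 and 8.64 in knockdown cells, 8.49, 8.79 and 8.69 in senescent cells and 9.87, 9.98 and 10.00 in non-senescent cells. It fell by 1.29 in senescence, to 0.408 times the non-senescent level (SE 0.074, adjusted p = 2.77e-07). With the hairpin its change was 0.01 (SE 0.074, adjusted p = 0.926), and the treated groups overlapped.

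ROR2 had values of 7.15, 7.22 and 6.94 in knockdown cells, 6.87, 6.89 and 6.90 in senescent cells and 7.51, 7.57 and 7.62 in non-senescent cells. It fell by 0.68 in senescence (SE 0.070, adjusted p = 2.33e-05). The knockdown arrays lay between the other groups without overlap, yet the change with the hairpin, 0.22, did not pass (SE 0.070, adjusted p = 0.0603). WNT5A was higher in senescent cells while both receptors were lower. Of the R-spondins, 0 of 4 were called in senescence or with the hairpin, beside 32.6% and 15.7% of all genes. RSPO1 and RSPO2 had group means below 6.75 in every group. RSPO3 was called higher in knockdown than in non-senescent cells (log2 change 0.34, adjusted p = 0.0198) with all group means below 6.75 and overlapping arrays, and 6 of 17 alternatives did not keep it.

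Of the 10 secreted antagonists 4 were lower in senescence and 1 higher, where 17.6% of all genes were lower and 14.9% higher. FRZB, which binds Wnt ligands through a frizzled-like domain, stood at 7.08, 6.75 and 7.08 in knockdown cells, 6.68, 7.15 and 7.12 in senescent cells and 8.38, 8.23 and 8.38 in non-senescent cells. The treated groups overlapped and lay well below the untreated one. It fell by 1.35 in senescence, to 0.393 times the non-senescent level (SE 0.13, adjusted p = 1.25e-05). Its change with the hairpin was -0.01 (SE 0.13, adjusted p = 0.966). Levels in the treated groups lay near 6.75, so the size of these changes is uncertain. SFRP1, of the same family, had values of 12.30, 12.30 and 12.27 in knockdown cells, 11.94, 12.05 and 12.01 in senescent cells and 12.71, 12.62 and 12.79 in non-senescent cells. It fell by 0.71 in senescence (SE 0.056, adjusted p = 3.2e-06) and rose by 0.29 with the hairpin (SE 0.056, adjusted p = 0.0057), with knockdown cells between the other groups. SFRP2, SFRP4, SFRP5 and WIF1, another protein that binds Wnt ligands, were called in no comparison.

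The DKK genes went separate ways. DKK1, the LRP5 and LRP6 blocker whose upstream window holds the TCF/LEF letters, stood at 9.0, 9.10 and 9.08 in knockdown cells, 9.30, 9.26 and 9.29 in senescent cells and 10.37, 10.23 and 10.08 in non-senescent cells. It fell by 0.94 in senescence, to 0.521 times the non-senescent level (SE 0.070, adjusted p = 2e-06). The knockdown arrays were all below the senescent ones, but the change of -0.23 did not pass (SE 0.070, adjusted p = 0.0537).

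DKK2, which binds the same co-receptors, was the antagonist that rose in senescence. It had 6.66, 6.62 and 6.66 in knockdown cells, 7.50, 7.55 and 7.18 in senescent cells and 6.69, 6.66 and 6.62 in non-senescent cells. Only the senescent arrays stood above 6.75. It rose by 0.75 in senescence (SE 0.084, adjusted p = 4.13e-05), and with the hairpin it fell by 0.76 (SE 0.084, adjusted p = 0.000175). Knockdown and non-senescent cells differed by -0.01 (SE 0.084, adjusted p = 0.94), both with means below 6.75, so that the folds are uncertain.

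DKK3, a divergent member of the family, fell by 0.33 in senescence (adjusted p = 0.000221), at 12.41 ± 0.0034 in knockdown, 12.26 ± 0.033 in senescent and 12.59 ± 0.042 in non-senescent cells (SD, n = 3 each). Its second probe set, at 5.36, 5.29 and 5.41 in the same groups, was below 6.75 and not called in any comparison. DKK4, with group means below 6.75, was called between knockdown and non-senescent cells at -0.15 (adjusted p = 0.0413), which 12 of 17 alternatives did not keep.

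LEF1, the DNA-binding partner of beta-catenin, stood at 7.73, 7.69 and 7.77 in knockdown cells, 7.73, 8.16 and 7.96 in senescent cells and 7.10, 6.97 and 7.13 in non-senescent cells. Treated arrays were all above the untreated ones. It rose 1.84-fold in senescence (SE 0.093 on the log2 scale, adjusted p = 2.89e-05), and its change with the hairpin was -0.22 (SE 0.093, adjusted p = 0.16). AXIN2, a feedback inhibitor often used as a readout of beta-catenin signalling, moved the other way and by little. It had 6.71, 6.84 and 6.80 in knockdown cells, 6.84, 6.83 and 6.85 in senescent cells and 7.01, 7.12 and 6.92 in non-senescent cells. Its change of -0.18 in senescence was called at an adjusted p of 0.0437, a call that 12 of 18 alternatives did not keep (adjusted p of up to 0.157). In knockdown against non-senescent cells AXIN2 had a log2 change of -0.24 (adjusted p = 0.0116). That call was lost under 3 of 18 alternatives (adjusted p of up to 0.0888).

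In all, 25 members were called in at least 1 comparison, and 24 in none. The share of all genes called in at least 1 comparison was not counted, so these counts cannot be set against it. The uncalled ones had mean levels from 4.41 to 8.33, 11 of them below 6.75. In both DKK2 and WNT7B the senescent arrays stood alone. In FRZB and ROR1, as in WNT2, FZD7, LEF1, AXIN2 and FZD5, the hairpin left values that overlapped those of senescent cells. How often these groups overlapped over all genes was not counted.

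The other genes of the pathway were taken from 4 lists, whose median changes lay between -0.168 and 0.079 in senescence, -0.034 and 0.012 with the hairpin and -0.095 and -0.018 between knockdown and non-senescent cells. Of 22 measured surface modulators, which carry, present or inhibit Wnt ligands, 5 rose and 4 fell in senescence, 4 rose and 0 fell with the hairpin, and 6 were higher and 5 lower in knockdown than in non-senescent cells. That is 40.9%, 18.2% and 50% of the list called in the 3 comparisons, beside 32.6%, 15.7% and 31.5% of all genes. Among genes with a mean over the 9 arrays of 6.75 or more, 45.1%, 22.5% and 42.4% were called. The 4 lists were not split by level. With the hairpin 9.63% of all genes were higher and 6.09% lower. WLS, the carrier that brings Wnt ligands to the cell surface, averaged 13.26 ± 0.023 in knockdown, 13.29 ± 0.062 in senescent and 11.96 ± 0.063 in non-senescent cells (SD, n = 3 each). Its senescence change was 1.34 on the log2 scale (adjusted p = 1.9e-08). NDP, which encodes the FZD4 ligand Norrin, rose by 1.64 (adjusted p = 5.1e-07) with a non-senescent mean of 6.21, below 6.75, so that the size of the rise is uncertain. APCDD1, a membrane-bound Wnt inhibitor, fell by 1.52 (adjusted p = 5.72e-07). With the hairpin TSPAN12, the partner of FZD4 in Norrin signalling, rose by 0.53 (adjusted p = 9.84e-05), and ADGRA2, a WNT7 co-receptor, rose by 0.36 (adjusted p = 0.00317).

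Of 31 measured genes of the beta-catenin core, 5 rose and 8 fell in senescence, 1 rose and 1 fell with the hairpin, and 5 were higher and 6 lower in knockdown than in non-senescent cells. The share called was 41.9% in senescence, against 32.6% of all genes, 6.45% with the hairpin, against 15.7%, and 35.5% between knockdown and non-senescent cells, against 31.5%. DVL2, a dishevelled protein that relays the frizzled signal, fell by 0.50 in senescence (adjusted p = 0.00031), and TCF7L1, a repressor of the TCF/LEF family, fell by 0.59 (adjusted p = 0.000331). With the hairpin CBY1, a beta-catenin antagonist, rose by 0.24 (adjusted p = 0.0263) and the tankyrase TNKS2 fell by 0.24 (adjusted p = 0.0165).

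Of 16 measured target genes, 5 rose and 3 fell in senescence, 1 rose and 1 fell with the hairpin, and 5 were higher and 3 lower in knockdown than in non-senescent cells. Of this list 50% were called in senescence, against 32.6% of all genes, 12.5% with the hairpin, against 15.7%, and 50% between knockdown and non-senescent cells, against 31.5%. Many other pathways also regulate these genes. MYC, a growth-promoting transcription factor, rose by 0.64 in senescence (adjusted p = 4.46e-06), and its hairpin change was -0.23 (adjusted p = 0.0146). JAG1, a Notch ligand, rose by 0.74 (adjusted p = 9.4e-06), and BAMBI, a decoy receptor for TGF-beta, fell by 0.48 (adjusted p = 5.94e-05). CCN4, a matricellular protein, had 8.73 ± 0.053 in knockdown, 8.14 ± 0.034 in senescent and 7.80 ± 0.070 in non-senescent cells (SD, n = 3 each) and rose by 0.58 with the hairpin (adjusted p = 6.41e-05).

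Of 19 genes of planar polarity and other beta-catenin-independent signalling, 4 rose and 9 fell in senescence, 1 rose and 1 fell with the hairpin, and 3 were higher and 7 lower in knockdown than in non-senescent cells. The share called was 68.4%, 10.5% and 52.6% in the 3 comparisons, against 32.6%, 15.7% and 31.5% of all genes. In senescence 14.9% of all genes were higher and 17.6% lower. For genes with a mean of 6.75 or more the shares called were 45.1%, 22.5% and 42.4%. The list's median change in senescence was -0.168, where that of all genes was -0.012. PRICKLE1, a core polarity protein, had 9.32 ± 0.062 in knockdown, 9.45 ± 0.088 in senescent and 10.74 ± 0.11 in non-senescent cells (SD, n = 3 each) and fell by 1.29 in senescence (adjusted p = 1.75e-07). The formin DAAM2 fell by 1.05 (adjusted p = 6.12e-07), with treated means below 6.75. With the hairpin INTU, a polarity effector of cilia, fell by 0.34 (adjusted p = 0.000606), and the Wnt receptor RYK rose by 0.18 (adjusted p = 0.0291).

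**Figure D3:**
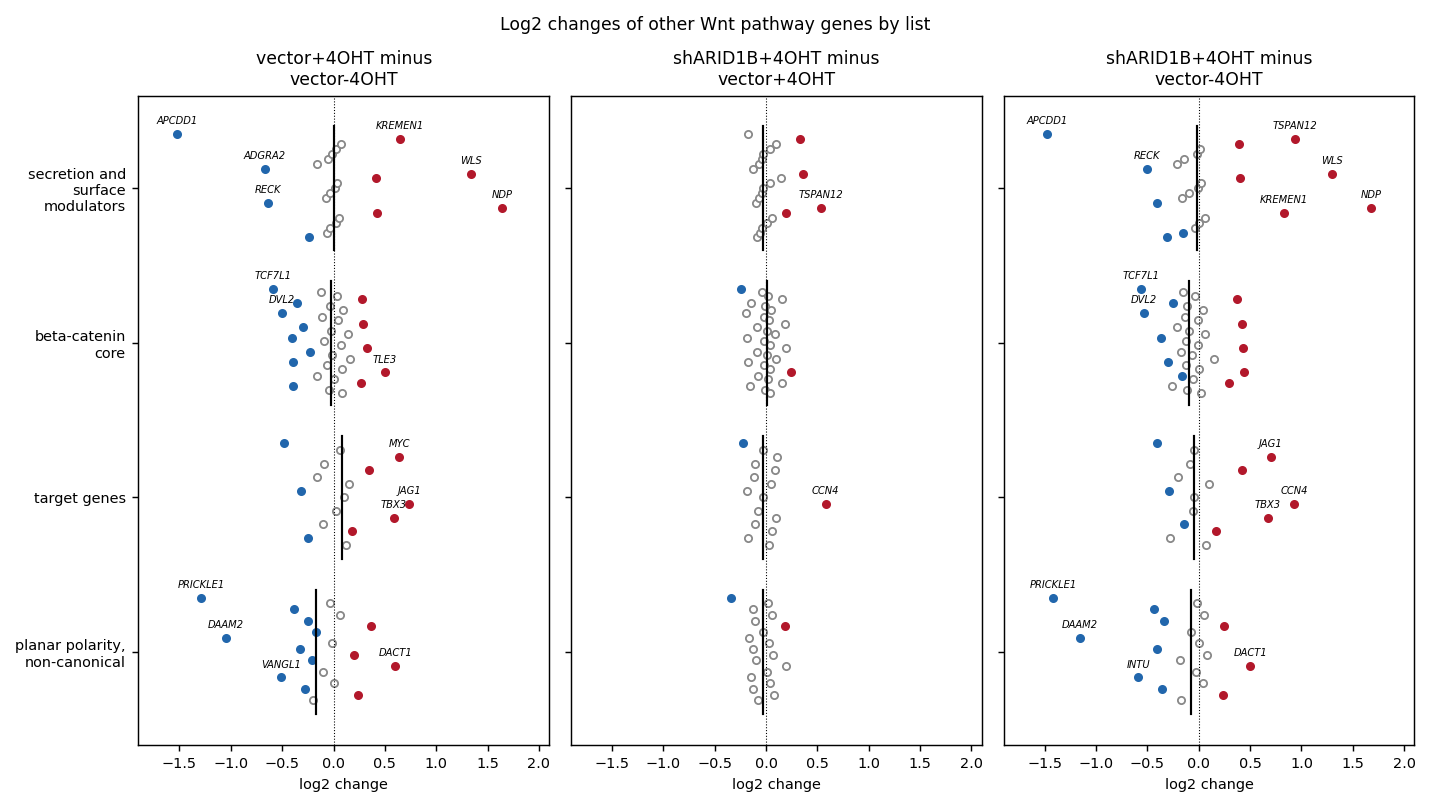
Log2 change (horizontal axis) of each measured gene of the 4 further pathway lists (rows) in senescence (left), with the hairpin (middle) and between knockdown and non-senescent cells (right). Red points were called higher, blue points lower and open points were not called, black lines mark each list's median, and called genes that changed by 0.5 or more are named. In senescence WLS lies at 1.34, APCDD1 at -1.52 and PRICKLE1 at -1.29, and NDP at 1.64 with a non-senescent mean below 6.75.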

How the data were processed

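The labels name an Affymetrix whole-transcript labelling kit and, for extraction, an Illumina library kit. The values are array values. The authors deposited log2 expression per probe set, made with oligo and RMA per the submitters' processing notes, and replicates were not pooled. Those notes also name limma. Array medians lay between 6.70 and 6.79. Gene symbols came from the platform annotation. Of 33297 probe sets, 19460 had 1 symbol, 1754 had several and 12083 had none, and the last 2 kinds were left out. For the 769 genes with several probe sets the one with the highest mean was kept, which gave 18417 genes.

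All 9 arrays were fitted with group as the only term in limma 3.58.1 (R 4.3.3), with moderated statistics and Benjamini-Hochberg adjustment over all genes in each of 3 comparisons. Tables and plots were made with Python 3.11.15, pandas 2.3.3 and matplotlib 3.10.9. An exact permutation test of 3 against 3 arrays cannot go below p = 0.1. The number of arrays limits the precision. Members with a log2 change of 0.5 or more in a comparison are given on every array, and from each further list at most 4 called genes a comparison, those with the smallest p, were eligible to be named. The members and lists were chosen with earlier results of these data known. Promoter sequences are from RefSeq (GRCh38.p14). The genome build behind the array annotation is not given in the sources used here.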

Additional observations from a re-analysis of the deposited data

How the results depend on the processing

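Of 50 called member changes, 32 kept their call under every alternative run, 18 lost it under at least 1 and 0 changed sign. The methods' t-test is the Student t-test that the paper gives as its general test, not as the test of these arrays in particular. With Benjamini-Hochberg adjustment that t-test called 3738 genes in senescence, against 5996 in the limma fit, and 1446 with the hairpin, against 2895. Leaving out 1 array gave 1801 (without shARID1B+4OHT replicate 2) to 2817 genes (without vector+4OHT replicate 3) with the hairpin. Members called without 1 array numbered 17 to 18 in senescence, 7 to 10 with the hairpin and 16 to 21 between knockdown and non-senescent cells. Correlations of deviations from the group mean ran from -0.264 to 0.322 for same-numbered arrays of different groups. For differently numbered arrays they ran from -0.331 to 0.337. With 3 arrays in each group these values cannot settle whether replicate numbers pair the arrays. With the replicate number as a block, 17, 9 and 18 members and 5658, 2498 and 5437 genes were called in the 3 comparisons. No background level was measured, so for genes with a group mean near or below 6.75, the median of the table, signal over background was not shown and the size of a fold is uncertain. Of the members some had equal values on arrays of a group.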
